A study of Mus musculus with 3 samples.

Results

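The 9 genes of secreted or membrane-bound matrix metalloproteinases (MMPs) listed below and the gene of their inhibitor Timp1 were followed in the distal colon of mice with colitis induced by dextran sulfate sodium (DSS), a polymer that injures the colonic epithelium when given in drinking water. The genes were Mmp2, Mmp3, Mmp7, Mmp8, Mmp9, Mmp10, Mmp12, Mmp13, Mmp14 and Timp1, picked by name, and each was measured by 1 probe set among 19938 genes with a probe set that names 1 gene. All 10 genes were present. All mice were male, littermates on a BALB/c background and 10 to 12 weeks old. WT normal mice drank water, and WT colitis mice, of the same genotype, were given 3% DSS for 7 days. IL-4Rα-/- colitis mice lacked the α subunit of the interleukin-4 receptor in all cells (the Il4ra tm1Sz allele) and received the same DSS. Colons were taken on day 7, and RNA was pooled onto 1 array per group, from 4 mice for WT normal, 3 for WT colitis and 6 for IL-4Rα-/- colitis. No array of IL-4Rα-/- mice on water was analysed here, so an effect of the genotype without DSS cannot be told apart from its effect in colitis. With 1 array per group, the differences below have no error, no replicate check and no p-value.

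MMPs are zinc-dependent endopeptidases that are made as inactive precursors, activated by removal of a propeptide, and held in check by TIMPs, which bind the active site. Together they cleave collagens, proteoglycans, laminin and many non-matrix proteins such as cytokines and adhesion molecules. In the inflamed gut, stromelysins and collagenases are known from fibroblasts and from epithelium at ulcer edges, Mmp8 and Mmp9 from neutrophils, Mmp12 from macrophages and Mmp7 from Paneth cells and injured epithelium. In bulk tissue, more RNA per cell and more cells of the type that makes it cannot be told apart.

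Several MMP promoters are known for a binding site of the AP-1 transcription factor (Fos and Jun proteins) just upstream of a TATA box, and the promoters are shown here because the members differed in whether they carried both. RefSeq windows from 250 bases before to 50 bases after the transcript start (build GRCm38.p6) were found for 8 of the 10 genes, Mmp2 and Mmp9 being those without one. The last 100 bases before the start follow, all on the plus strand, for both windows of Mmp12 and the first of 2 windows of Mmp7, with AP-1 matches (TGANTCA) and TATA boxes (TATAAA) in capitals. The windows are chr9:7445722-7445821 for Mmp3, chr9:7502242-7502341 for Mmp10, chr9:7272414-7272513 for Mmp13, chr9:7691990-7692089 for Mmp7, chr9:7558329-7558428 for Mmp8, chr9:7344297-7344396 and chr9:7347274-7347373 for Mmp12, chr14:54431498-54431597 for Mmp14 and chrX:20870066-20870165 for Timp1.
Mmp3: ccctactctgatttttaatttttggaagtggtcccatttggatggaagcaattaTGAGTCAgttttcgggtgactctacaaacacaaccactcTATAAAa
Mmp10: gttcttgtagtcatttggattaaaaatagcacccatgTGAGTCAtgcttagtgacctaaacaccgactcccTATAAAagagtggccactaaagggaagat
Mmp13: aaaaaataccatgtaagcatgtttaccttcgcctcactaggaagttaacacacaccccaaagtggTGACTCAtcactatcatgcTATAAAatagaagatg
Mmp7: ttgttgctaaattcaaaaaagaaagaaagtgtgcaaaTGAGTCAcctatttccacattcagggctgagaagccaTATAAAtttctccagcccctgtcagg
Mmp8: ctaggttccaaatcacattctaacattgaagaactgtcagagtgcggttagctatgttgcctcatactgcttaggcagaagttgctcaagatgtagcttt
Mmp12 window 1: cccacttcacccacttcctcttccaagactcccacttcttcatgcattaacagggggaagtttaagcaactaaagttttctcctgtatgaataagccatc
Mmp12 window 2: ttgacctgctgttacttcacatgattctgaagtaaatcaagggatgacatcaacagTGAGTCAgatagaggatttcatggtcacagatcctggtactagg
Mmp14: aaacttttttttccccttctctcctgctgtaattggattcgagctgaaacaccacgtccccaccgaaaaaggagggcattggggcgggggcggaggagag
Timp1: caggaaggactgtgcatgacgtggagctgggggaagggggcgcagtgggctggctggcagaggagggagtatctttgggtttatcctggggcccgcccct

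An AP-1 match and a TATA box were both found in 5 of the 8 genes. The AP-1 match began 63 bases before the start in Mmp10 and Mmp7, 46 in Mmp3 and 35 in Mmp13, and a TATA box began 27, 30, 32 and 12 bases after its end in Mmp10, Mmp7, Mmp3 and Mmp13. The other window of Mmp7 held neither motif. In Mmp12, 1 of 2 windows held an AP-1 match, with a TATA box after the annotated start. Windows of Mmp8, Mmp14 and Timp1 held neither motif. Across 32851 promoter windows of the same length, 7.81% held the AP-1 letters and 8.32% the TATA box, the former searched on both strands and the latter on the gene's strand. The ETS-family PEA3 motif (AGGAAG, both strands) was found in 7 of the 8 genes, all but Mmp10, and in 35.4% of all windows. A STAT6-type site (TTCNNNNGAA, both strands), the kind bound after IL-4 receptor signalling, was found in 0 of the 8 genes and in 6.95% of all windows. The shares of all windows are per window and per motif, whereas the members were counted per gene, Mmp7 and Mmp12 with 2 windows each. The share of all windows that held both an AP-1 match and a TATA box was not computed. No match overlapped another, and a match shows only that the letters are present.

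**Figure D1:**
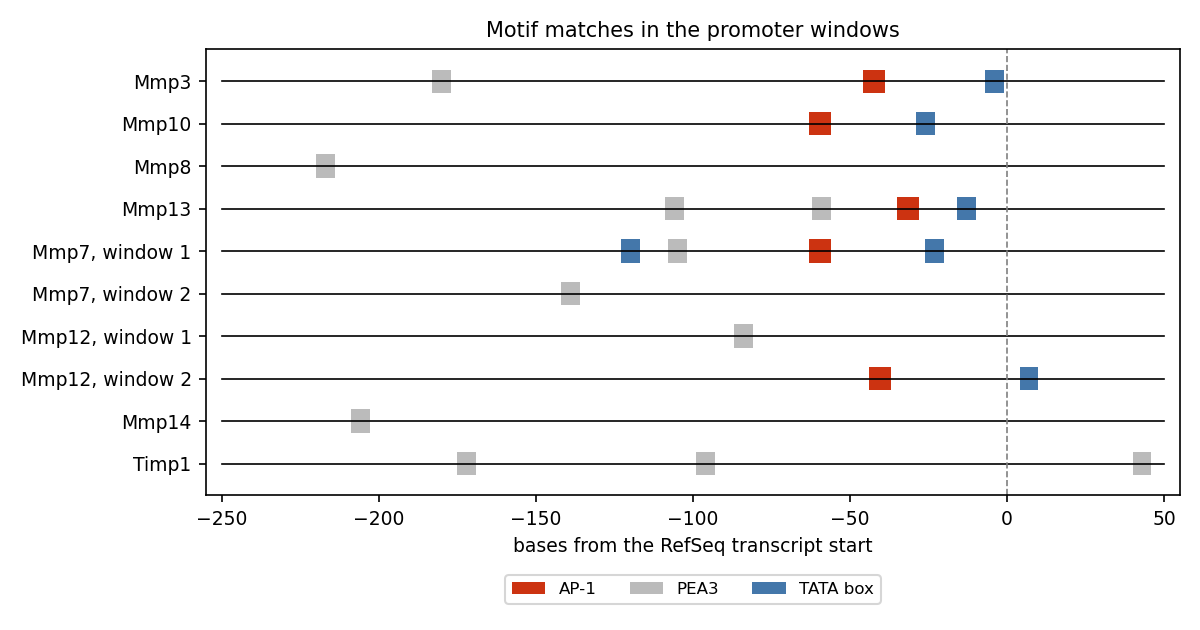
Motif matches in the RefSeq promoter windows of 8 genes, with bases from the transcript start on the x axis, 1 line per window and a box for each AP-1 (red), PEA3 (grey) and TATA box (blue) match. Mmp3, Mmp10, Mmp13 and the first window of Mmp7 have an AP-1 match 35 to 63 bases before the start followed by a TATA box, and Mmp8, Mmp14 and Timp1 have neither.

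The first comparison asked how WT mice with DSS colitis differed from WT mice on water. In WT colitis, 7 of the 10 genes exceeded WT normal more than 2-fold and 0 were lower by that much. Of all 19938 genes, 1.16% were more than 2-fold higher and 0.456% more than 2-fold lower. Mmp13, Mmp10, Timp1 and Mmp3 were more than 4-fold higher, as were 0.181% of all genes. The genes had been picked with these arrays' results known, so their share against that of all genes is a description. Their median log2 difference was 1.25, where that of all genes was 0.00, and the range ran from 0.04 for Mmp12 (-0.03 with arrays centred on their medians) to 3.04 for Mmp13.

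The second comparison asked how IL-4Rα-/- mice with DSS colitis differed from WT mice with DSS colitis. In IL-4Rα-/- colitis, 7 of the 10 genes lay more than 2-fold below WT colitis and 0 that far above it, against 0.908% lower and 0.271% higher of all genes. They were the 7 genes past 2-fold in the first comparison, and both comparisons share the WT colitis array. Mmp10, Mmp13 and Timp1 were more than 4-fold lower, as were 0.150% of all genes. The median log2 difference of the 10 genes was -1.25, from -2.82 for Mmp10 to 0.11 for Mmp7. Set against WT normal directly, 0 of the 10 genes in IL-4Rα-/- colitis were more than 2-fold higher or lower, and 0.186% and 0.336% of all genes were.

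**Figure D2:**
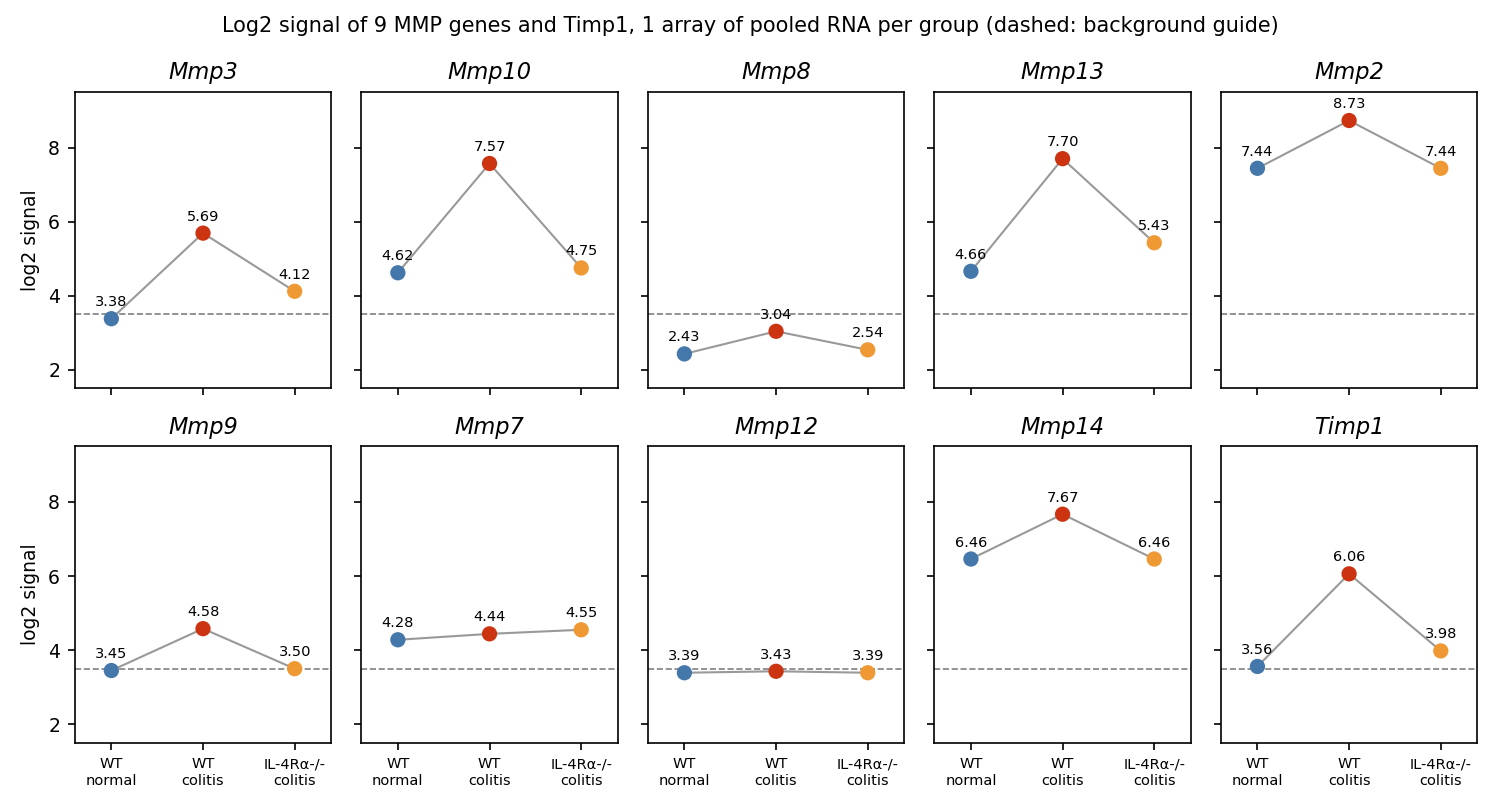
Log2 signal (y axis) of the 9 MMP genes and Timp1 on the arrays of WT normal, of WT colitis and of IL-4Rα-/- colitis (x axis), 1 point per array, with a dashed line at the background guide of 3.50. The WT colitis point is the highest in every panel except that of Mmp7, and Mmp8 and Mmp12 lie below the dashed line on all 3 arrays.

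The signals have no detection call. As a guide to background, the 95th percentile of 1205 olfactory and vomeronasal receptor probe sets, which the colon hardly expresses, was a log2 signal of 3.50. A fold that starts from a lower signal was computed from 3.50 and stands as a lower bound, written "at least". Counts past 2-fold or 4-fold use the deposited values, and the floor at 3.50 is named where it ends a call. Of the 10 genes, only Mmp8 and Mmp12 did not exceed the guide on any of the 3 arrays.

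The stromelysins degrade proteoglycans, laminin and fibronectin, and activate other proMMPs. Mmp10, stromelysin 2, had log2 signals of 4.62 on the WT normal, 7.57 on the WT colitis and 4.75 on the IL-4Rα-/- colitis array. The WT colitis array stood alone, 7.73-fold above WT normal and 7.06-fold above IL-4Rα-/- colitis, while the latter pair differed by 0.13 on the log2 scale. Mmp3, stromelysin 1, had 3.38, 5.69 and 4.12 on the same arrays, and values in a row of 3 keep this order from here on. WT normal lay below the guide, so Mmp3 was at least 4.56-fold higher in WT colitis, and it was 2.97-fold below WT colitis in IL-4Rα-/- colitis. Mmp3 in IL-4Rα-/- colitis stood above WT normal, on the linear scale, by 16.9% of the difference seen in WT colitis, against 1.40% for Mmp10.

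The collagenases cut fibrillar collagen. Mmp13, collagenase 3, had log2 signals of 4.66 on the WT normal, 7.70 on the WT colitis and 5.43 on the IL-4Rα-/- colitis array. It was 8.22-fold above WT normal in WT colitis, the largest difference of the 10 genes, ranking 9 from the top among all genes, with Mmp10 at rank 11 and Timp1 at 16. IL-4Rα-/- colitis lay 4.82-fold below WT colitis, and a log2 difference of 0.77 put Mmp13 farthest above WT normal among the 10 genes in these mice. Mmp8, the neutrophil collagenase, had 2.43, 3.04 and 2.54, all below the guide, so no fold is given for it.

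The gelatinases cleave denatured collagen and type IV collagen of basement membranes. Mmp2, gelatinase A, which fibroblasts make constitutively, had log2 signals of 7.44 on the WT normal, 8.73 on the WT colitis and 7.44 on the IL-4Rα-/- colitis array. It was 2.45-fold higher in WT colitis than on either other array. Mmp9, gelatinase B, had 3.45, 4.58 and 3.50, at least 2.11-fold above WT normal in WT colitis and 2.11-fold higher than in IL-4Rα-/- colitis. Both of its lower signals lay at or below the guide. Under quantile normalization Mmp9 was no longer past 2-fold in IL-4Rα-/- colitis against WT colitis, and Timp1 no longer past 4-fold (log2 difference -1.98). Mmp14, the membrane-anchored MT1-MMP that activates proMMP2 at the cell surface, had 6.46, 7.67 and 6.46, and was 2.31-fold higher in WT colitis than on either other array.

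Timp1, the secreted inhibitor of most soluble MMPs, had log2 signals of 3.56 on the WT normal, 6.06 on the WT colitis and 3.98 on the IL-4Rα-/- colitis array. It was 5.66-fold above WT normal in WT colitis and 4.23-fold below WT colitis in IL-4Rα-/- colitis, the same directions as in the 6 MMP genes past 2-fold. A log2 difference of 0.42 from WT normal was left in IL-4Rα-/- colitis, 16.8% of the difference seen in WT colitis, or 7.26% on the linear scale.

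Mmp7, matrilysin, a small MMP of glandular epithelium, had 4.28, 4.44 and 4.55, the only member that was highest in IL-4Rα-/- colitis. Its log2 differences, 0.16 for WT colitis and 0.27 for IL-4Rα-/- colitis, both over WT normal, were small beside those of the stromelysins. Of its 2 promoter windows, 1 carries an AP-1 match and TATA box. Mmp12, the macrophage elastase, had 3.39, 3.43 and 3.39, all below the guide.

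Mmp2, Mmp12 and Mmp14 had exactly the same deposited value, to 2 decimals, on the WT normal and IL-4Rα-/- colitis arrays. Such equal values were common in the table. Of all genes, 45.8% had 1 value on all 3 arrays, and in another 20.0% WT normal and IL-4Rα-/- colitis were equal while WT colitis was not. The step that gave equal values is not given in the sources at hand, so a difference of 0.00 says no more than that the deposited values are equal. WT normal equalled WT colitis alone in 6.48% of genes, and the colitis arrays equalled each other alone in 6.52%.

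**Figure D3:**
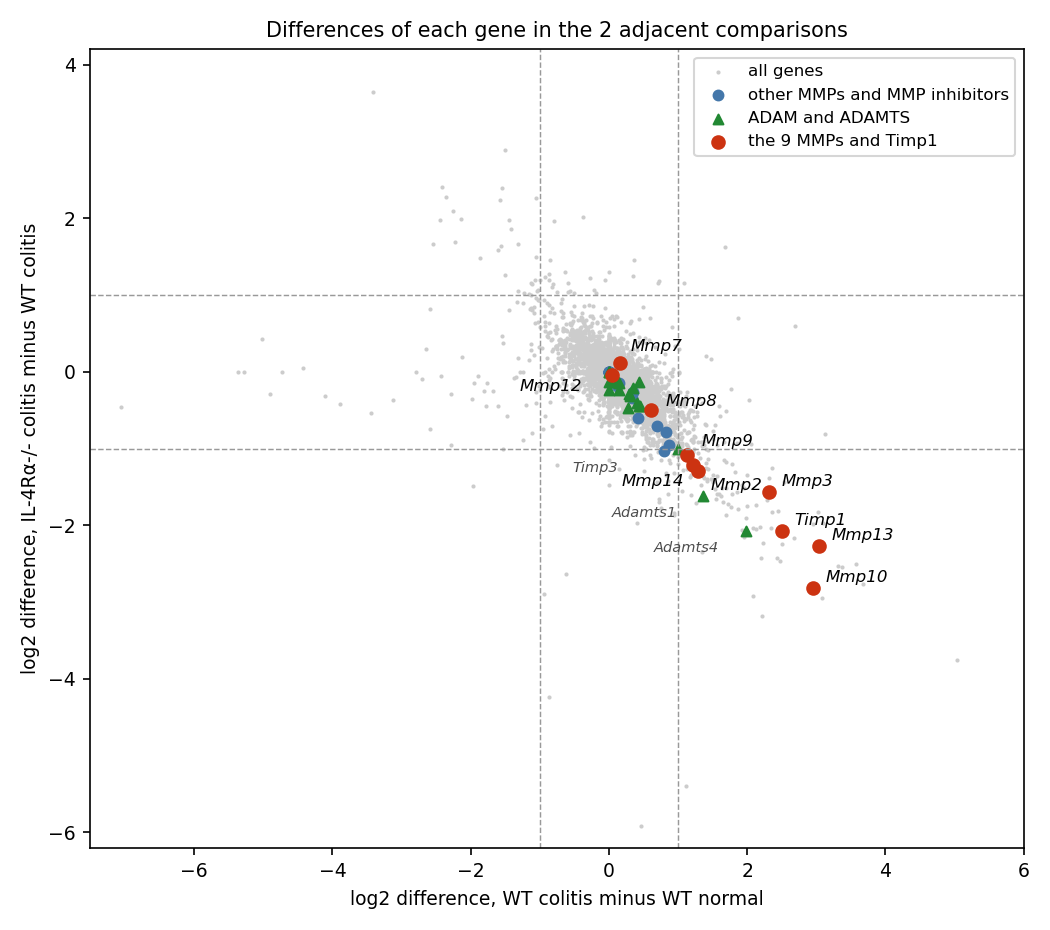
Log2 differences of WT colitis minus WT normal on the x axis, and of IL-4Rα-/- colitis minus WT colitis on the y axis, 1 point per gene, with dashed lines at 1 and -1, the 2-fold threshold. The 7 members past 2-fold in both lie to the right of 1 and below -1, with Mmp10 at 2.95 and -2.82. Both axes use the WT colitis array.

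Of the 7 genes past 2-fold in WT colitis, 3 lie in one gene cluster. The cluster also holds the members Mmp7, Mmp8 and Mmp12, which were within 2-fold. The members outside it, Mmp2, Mmp9, Mmp14 and Timp1, were all past 2-fold. RefSeq lists 10 MMP genes in an unbroken run on chromosome 9, in the order Mmp13, Mmp12, Mmp1b, Mmp3, Mmp1a, Mmp10, Mmp8, Mmp27, Mmp20 and Mmp7, and all 10 were measured. Within the run, 3 genes, Mmp13, Mmp3 and Mmp10, were more than 2-fold higher in WT colitis, with at least 1 gene between each and the next that was not. Mmp1a, Mmp1b and Mmp27 each had 1 value on all 3 arrays, at 2.20, 2.02 and 2.62, below the guide. Mmp20, enamelysin, had 2.44, 2.58 and 2.44. Just beyond Mmp7, Tmem123 had 7.80, 8.89 and 8.13, so it too was more than 2-fold higher in WT colitis, with a log2 difference of 1.09. Just before Mmp13, Dcun1d5 had 5.86, 6.51 and 6.32.

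**Figure D4:**
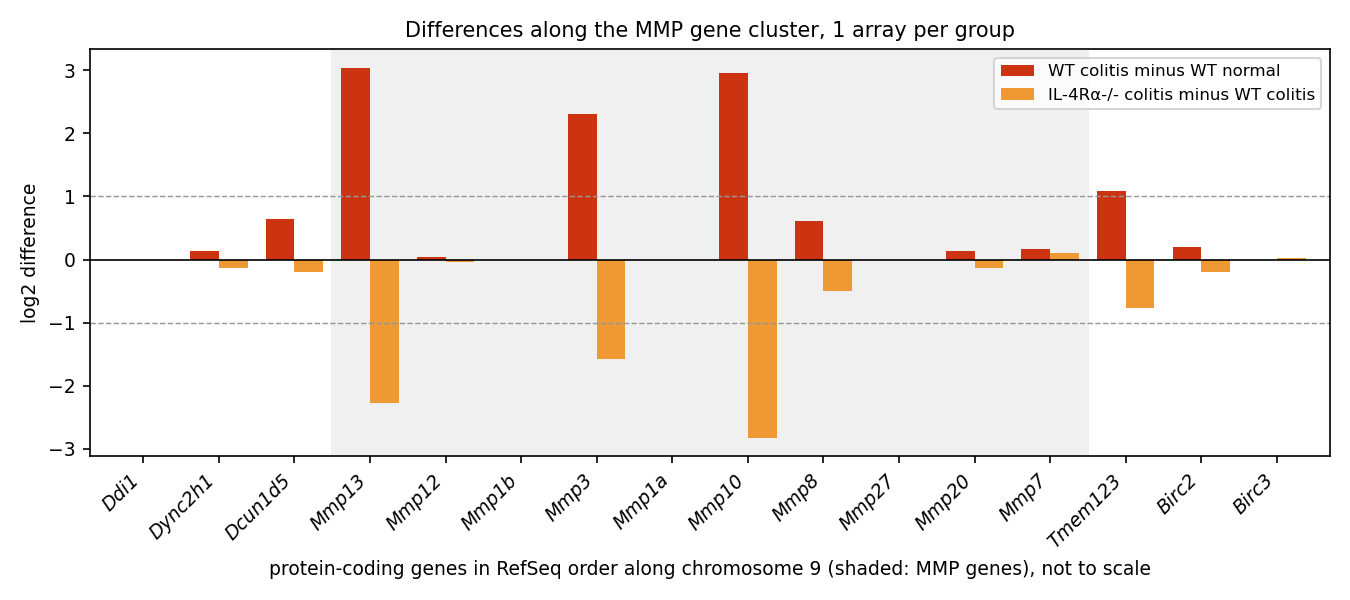
Log2 differences (y axis) of the 10 MMP genes on chromosome 9 and 3 protein-coding genes on each side, in RefSeq order and not to scale, for WT colitis minus WT normal (red) and IL-4Rα-/- colitis minus WT colitis (orange). Mmp13, Mmp3 and Mmp10 stand out at 3.04, 2.31 and 2.95 in WT colitis. The MMP genes between them are near 0, with signals below the background guide on every array. Tmem123, outside the run, is at 1.09.

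The rest of the family differed less between arrays. Of 13 other measured MMP genes, 0 were more than 2-fold higher or lower in either comparison, and 8 of them did not exceed the guide on any array. Mmp19, a stroma and vessel-associated MMP, was nearest to the threshold, with 4.49, 5.36 and 4.41. Mmp11, stromelysin 3, had 4.01, 4.71 and 4.01, and Mmp28, epilysin, had 5.27, 5.32 and 5.27. Mmp23 had 4.35, 4.46 and 4.27, and Mmp16 had 3.12, 3.47 and 3.20. Mmp17, Mmp21, Mmp24 and Mmp25 each had 1 value on all 3 arrays, at 3.89, 2.53, 3.31 and 3.50. Mmp15 was not analysed here.

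Other MMP inhibitors included genes with high signals. Timp3, which is bound to the matrix, had 8.10, 8.90 and 7.87, a log2 difference of 0.80 in WT colitis and of -1.03 in IL-4Rα-/- colitis against WT colitis. Timp2, the inhibitor that also takes part in proMMP2 activation, had 7.53, 7.95 and 7.35. Timp4 had 3.21 on every array, Reck, a membrane-anchored inhibitor, 5.05, 5.08 and 5.05, and A2m, a plasma protease trap, 2.71, 3.53 and 2.75. Tfpi2, an inhibitor found in matrix, had 4.93, 5.27 and 4.93. Timp1 was thus the 1 inhibitor of the 7 that passed 2-fold in WT colitis, and Timp1 and Timp3 were the ones past 2-fold in IL-4Rα-/- colitis against WT colitis, although Timp3 was within 2-fold under quantile normalization and with arrays centred on their medians.

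Among related metalloproteinases, 2 of 19 ADAM and ADAMTS genes were more than 2-fold higher in WT colitis and 0 lower, and the same 2 were more than 2-fold below WT colitis in IL-4Rα-/- colitis. Adamts4, an aggrecanase that also cleaves versican, had 3.64, 5.62 and 3.54, and Adamts1 had 5.31, 6.67 and 5.05. Against WT normal, both were lower in IL-4Rα-/- colitis, with log2 differences of -0.10 and -0.26. Of 5 astacin-family genes, Mep1b, a subunit of the brush-border protease meprin, was higher in IL-4Rα-/- colitis, with 6.72, 6.54 and 7.56.

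Of 13 genes for serine proteases that activate proMMPs and the urokinase receptor, 1 was more than 2-fold higher in WT colitis. Plau, urokinase, which generates plasmin, had 5.72, 6.77 and 5.22, and was 2.93-fold below WT colitis in IL-4Rα-/- colitis. Its difference in WT colitis was within 2-fold under quantile normalization or median centring. Its receptor Plaur had 5.51, 5.50 and 4.97, Plat, tissue plasminogen activator, had 4.60, 5.26 and 4.60, and Furin, which activates proMMP14, had 7.07, 7.24 and 7.07. Plg, plasminogen itself, a liver product, had 2.53 on all arrays. The 3 measured inhibitors of plasminogen activation and plasmin, Serpinb2, Serpinf2 and Serpini1, lay below the guide throughout.

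Cytokines and growth factors known to induce MMPs differed in both directions. Of 16 measured, 5 were more than 2-fold higher in WT colitis and 1 lower, and 4 were more than 2-fold below WT colitis in IL-4Rα-/- colitis. The 4 were Ereg, an EGF receptor ligand, with 6.62, 8.70 and 5.78, Fgf7, a fibroblast growth factor for epithelium, with 4.18, 6.41 and 4.18, Il11, a stromal cytokine, with 3.24, 5.43 and 3.41, and Fgf2 with 5.14, 6.67 and 5.14. Il1a, the fifth, had 2.41, 3.64 and 3.05 and exceeded the guide only in WT colitis, so that with the floor 4 genes were past 2-fold. Il1b had 4.96, 5.71 and 4.96 and Tnf 4.23, 4.23 and 4.30. Hbegf, another EGF receptor ligand, was lower on both DSS arrays, with 7.94, 6.04 and 5.99. Il4 and Il13, the ligands of the receptor that was deleted, each had 1 value on all 3 arrays, 2.38 and 3.50, at or below the guide. Il4ra, the check of the genotype, had 5.69, 6.63 and 4.76. It was lowest in IL-4Rα-/- colitis but stayed above the guide, and where its probes lie relative to the deleted part is not known here.

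Transcription factors known to act at MMP promoters, among them Fos, Jun and ETS proteins, were followed as well. Of 17 measured, 0 were over 2-fold higher on the WT colitis array and 2 were lower. Fos had 7.89, 6.09 and 5.84 and Atf3 8.04, 6.89 and 7.04. Fosl1, another Fos protein, had 4.18 on every array, Jun had 7.52, 7.73 and 7.52, and Junb had 5.58, 4.90 and 4.90. The ETS factors Ets1, with 4.97, 5.59 and 4.97, and Elk3, with 5.70, 6.45 and 5.70, were within 2-fold. RNA levels on day 7 do not report phosphorylation of these factors.

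**Figure D5:**
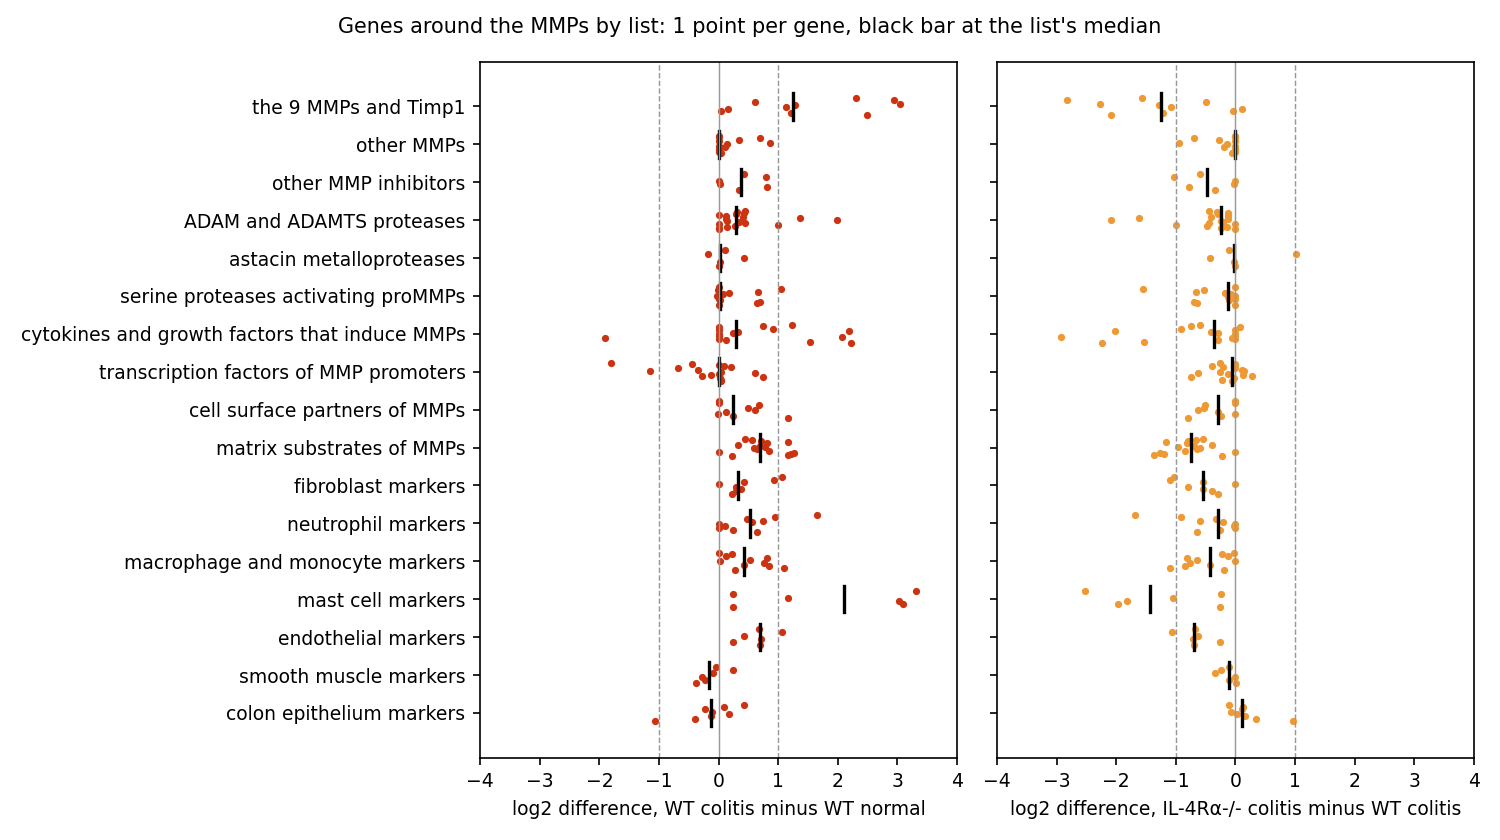
Log2 difference of each gene (points) by list, for WT colitis minus WT normal (left) and IL-4Rα-/- colitis minus WT colitis (right), with a black bar at each list's median and dashed lines at 1 and -1. The 10 genes have medians of 1.25 and -1.25, and the other MMPs have medians of 0.00. Most other lists have medians on the same sides as the 10 genes, farthest from 0 for mast cell markers, matrix substrates and endothelial markers. Colon epithelium markers have medians on the opposite sides but close to 0, at -0.12 and 0.115, with single genes on both sides. Smooth muscle markers have medians of -0.155 and -0.105.

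Genes of matrix proteins that MMPs cleave were also higher in WT colitis, by less. Of 16 measured, 4 were more than 2-fold higher in WT colitis and 0 lower, and 4 were more than 2-fold below WT colitis in IL-4Rα-/- colitis, with medians of 0.70 and -0.745. Dcn, the proteoglycan decorin, had 9.49, 10.76 and 9.49, Tnc, tenascin C, had 7.30, 8.47 and 7.10, Vcan, versican, had 5.19, 6.40 and 5.21, and Col4a1, of basement membrane, had 5.05, 6.22 and 5.05. Col1a1, the main substrate of collagenases, had 7.45, 7.89 and 7.34. Of 9 surface partners, Cldn1 was the 1 past 2-fold, with 3.70, 4.86 and 4.07, whereas Bsg, the MMP inducer basigin, had 9.73 and Cd44, a docking site of MMP9, 7.19 on all arrays.

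Markers of cells known to make MMPs are given beside these results. Of 8 fibroblast markers, 1 was more than 2-fold higher in WT colitis, Pdgfra, with 6.45, 7.51 and 6.48, and 2 were more than 2-fold lower in IL-4Rα-/- colitis, Pdgfra and Pdgfrb. Under quantile normalization 0 fibroblast markers passed 2-fold in either comparison, and with median centring 0 did in the first comparison and 1 in the second. Their summed linear signal was 736.8, 1032.7 and 614.7. Of 11 macrophage and monocyte markers, Cd163 was the 1 past 2-fold, with 3.12, 4.22 and 3.12, and with the floor none was. The summed linear signals were 1381.1, 1945.0 and 1315.7. Adgre1, which defines tissue macrophages, had 4.75, 4.75 and 4.73. Of 10 neutrophil markers, 7 stayed below a log2 signal of 4 on every array, and Mpo had 2.32 on all 3. The summed linear signals, 1277.0, 1899.1 and 1622.0, came mostly from Ly6g, with 10.24, 10.81 and 10.60. Ly6g was thus high on the WT normal array too, where most of the other markers were dim, so the sums do not stand for neutrophil number. S100a8, the 1 past 2-fold, had 2.62, 4.27 and 2.58, and with the floor none was. Of 6 mast cell markers, 4 were more than 2-fold higher in WT colitis and 4 below WT colitis in IL-4Rα-/- colitis, or 3 and 3 with the floor, which takes out Fcer1a. Their summed linear signals were 271.0, 1154.3 and 405.5. Of 6 endothelial markers, 1, Cdh5, passed 2-fold each way and 0 did under quantile normalization or median centring, with sums of 244.1, 392.2 and 240.0. The part of these cells in the MMP and Timp1 differences was not tested. All 8 colon epithelium markers had log2 signals above 7 on every array. Slc26a3, a chloride exchanger of colonic epithelium, was the 1 past 2-fold, lower in WT colitis with 10.11, 9.05 and 10.01, and with median centring it was also more than 2-fold higher in IL-4Rα-/- than in WT colitis. Of the 6 smooth muscle markers, 0 passed 2-fold. Of 6 listed Paneth cell markers, 3 were measured, and 0 passed 2-fold. Lyz1 had 7.44, 7.80 and 7.01 and Pla2g2a 9.97, 9.74 and 10.25. Defa24, a defensin, had 1.98, 1.98 and 1.85, below the guide on every array, so these values do not show that Paneth cells were present.

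The WT normal array stood apart in another tissue's genes. Of 5 measured exocrine pancreas markers, 5 lay more than 4-fold below WT normal on the WT colitis array and 5 more than 2-fold below it on the IL-4Rα-/- colitis array, from a log2 difference of -7.06 for Ctrb1 to -2.59 for Cela1 in WT colitis. Their part in the comparisons with WT normal was not tested. The comparison of the DSS arrays does not use WT normal, and there the 5 markers had a median difference of 0.00. Krt5, a marker of squamous epithelium, had 3.09, 5.17 and 3.14, but 4 of the 6 squamous markers stayed below 4 on every array.

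The genes most like Mmp10 in both differences, by Euclidean distance on the log2 scale over 3 arrays, were Cemip, a hyaluronan-degrading protein, at a distance of 0.18, Cpa3, the mast cell carboxypeptidase, at 0.47, Igfbp5, an IGF-binding protein, at 0.50, Mmp13 at 0.56 and Lgi2 at 0.59. Cemip had 3.57, 6.65 and 3.70, and Lgi2 had 3.95, 6.42 and 3.95. Mmp13 was thus the only other member among the 5 nearest genes. With only 3 arrays, likeness here is a description.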

How the data were processed

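RNA pooled within each group was hybridised to 1 array per group, of the Mouse Gene 1.0 ST type (GeneChip) by the study's methods, although the labels name a Cy3 labelling kit of another maker. The deposited table holds log2 signals with 2 decimals that the authors normalized, by a method not given in the sources used here. Array medians were 4.11 for WT normal, 4.18 for WT colitis and 4.11 for IL-4Rα-/- colitis. Of 28944 probe sets, 21789 had 1 gene symbol, 1621 several and 5534 none, and only those with 1 symbol were used. Of these, 21698 were matched to RefSeq by gene number. The probe set with the highest mean stood for a gene, which gave 19938 genes. The signals were not normalized again.

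For each gene the log2 difference between arrays was computed (Python 3.11.15, numpy 2.4.6, pandas 2.3.3, figures with matplotlib 3.10.9), and genes more than 2-fold or 4-fold apart were counted. With 1 array per group no test was run, and the number of arrays limits the precision. The computation was tested on simulated data. The members and lists were chosen with earlier results of these data known. Text names all members, all other MMP and TIMP genes, up to 5 genes of each other list past 2-fold and the 5 genes nearest to Mmp10. Further genes within 2-fold, such as Tnf, Jun and Col1a1, were chosen after their values were seen. Promoter motifs were searched in RefSeq windows. A planned comparison of the proteins was not made. Alternatives were quantile normalization, median centring, an offset of 32, averaging all probe sets per gene, a filter on dim genes and, chosen after seeing the data, a floor at the background guide. For the other lists, median centring and the floor were chosen after seeing the data.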

Additional observations from a re-analysis of the deposited data

How the results depend on the processing

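Adding an offset of 32 on the linear scale, which by construction shrinks differences between low signals, moved the member counts most. In WT colitis against WT normal, 4 of the 10 genes were then more than 2-fold higher in place of 7, and 1 more than 4-fold in place of 4, with a median of 0.98. In IL-4Rα-/- colitis against WT colitis, 4 were more than 2-fold lower and 0 more than 4-fold lower, with a median of -0.87, and against WT normal the median was 0.04. Mmp10, Mmp13, Timp1 and Mmp2 were those past 2-fold in both. Over all genes the offset gave 81 higher and 58 lower in place of 231 and 91, 34 and 73 in place of 54 and 181, and 18 and 44 in place of 37 and 67. With only genes at a log2 signal of at least 4 on an array, Mmp8 and Mmp12 dropped out and the medians of the other 8 were 1.80, -1.43 and 0.20. Mmp9 and Timp1 passed this filter only through the WT colitis array, where they were highest. The larger medians are therefore in part set by the filter and add no support. Quantile normalization gave 6 genes more than 2-fold lower and 2 more than 4-fold lower in IL-4Rα-/- colitis against WT colitis. Of the members, Mmp12 changed sign with arrays centred on their medians, to -0.03 in WT colitis against WT normal and 0.03 in IL-4Rα-/- colitis against WT colitis, and under quantile normalization the differences of 0.00 of Mmp2, Mmp12 and Mmp14 became -0.01, 0.02 and -0.01. Of the 2-fold counts in the other lists, with a change beyond 1.5 times taken as moved, the offset moved 22 and left 104, quantile normalization moved 6 and left 120, median centring moved 7 and left 119, and the floor at the background guide moved 4 and left 122. The last pair of settings was chosen for these lists after seeing the data. No paired analysis was possible because each group has 1 array, and no array could be left out.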
